A study of Mus musculus with 18 samples.

Results

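The genes of the respiratory chain, the 5 protein complexes of the inner mitochondrial membrane that carry electrons to oxygen and make ATP, were followed in brown preadipocytes treated with FGF6. Members were chosen by gene symbol alone, as protein-coding genes named for subunits of complex I (Nduf), complex II (Sdh), complex III (Uqcr), complex IV (Cox4 to Cox8), complex V (Atp5), or for the proteins encoded in mitochondrial DNA (mt-Nd, mt-Co, mt-Atp, and mt-Cytb). GENCODE release M21 held 98 such genes, and 97 of them were among the 48023 genes of the count table, 84 nuclear and 13 mitochondrial. A few are not structural subunits of the complex they are named after. Ndufa4 belongs to complex IV, Cox7a2l is a supercomplex assembly factor, and Atp5s is a coupling factor, and each was kept under its name.

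The cells were an immortalized murine brown preadipocyte line, undifferentiated precursors of brown fat, exposed to vehicle or FGF6, a secreted fibroblast growth factor, for 4, 8, or 24 h. Each of the 6 groups had 3 RNA-seq libraries, which makes 18, and the groups are called here by treatment and time. Nothing in the labels says that the 3 libraries of a group came from separate cultures, so p-values measure the spread between these libraries, which may be technical. The results are those of 1 cell line.

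Complex I takes electrons from NADH and complex II, which is also succinate dehydrogenase of the citric acid cycle, takes them from succinate. Complex III passes them to cytochrome c, complex IV hands them to oxygen, and complex V is the ATP synthase that uses the proton gradient built on the way. All but complex II are assembled from subunits of both genomes, since mitochondrial DNA keeps genes for a small set of membrane subunits. In brown fat this chain drives heat production when UCP1 lets protons leak back across the membrane.

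Library totals ranged from 24327816 to 33471980 counts (median 28922204.5). Levels are given in CPM, counts scaled to a common library total adjusted by TMM, a trimmed mean of log ratios between libraries, and a floor of 3 counts corresponded to 0.0905 to 0.126 CPM. Such floors and counting intervals cover counting error only. The cells were checked against cell type markers. Of 8 markers of preadipocytes and stroma, 7 passed the low-count filter, with a summed level between 1410 and 6400 CPM over all libraries, and Dlk1 was at 0. Of 4 brown lineage markers, 3 passed, with a summed level between 63.9 and 92.5 CPM. Vehicle 24 h replicate 3 stood apart, with 2570 CPM of mitochondrial ribosomal RNA against 420.1 to 918.4 CPM in the other 17 libraries. Over the filtered genes, its chi-square per degree of freedom was 37.9 and 41.3 against replicates 1 and 2, and 4.04 between those. The counts of all members and of mitochondrial genes called at 24 h are therefore also given without it. The sums and the counts by complex at 24 h are given with it only. That library also had 1306 CPM of Gm26917, from a list of ribosomal RNA and RNA quality genes, and 2445 CPM of Lars2. Replicates 1 and 2 of its group had 138.5 and 128.1 CPM of Gm26917 and 197.2 and 207.7 CPM of Lars2.

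Not every mitochondrial gene could be measured. Of the 97 members, 86 had enough counts for a test, 79 nuclear and 7 mitochondrial. Of these 86, 28 share exonic bases with a gene on the other strand, whose reads cannot be told apart if counting ignored the strand. Among the genes named here they are Ndufb11, Ndufs1, Ndufa11, Uqcrc2, Cox4i1, Cox5a, Cox6a2, Atp5a1, Atp5d, Atp5l, mt-Co1, mt-Nd5, and mt-Nd6. The shared bases were 3 for mt-Co1, 498 for Ndufs1, and up to 504 for Uqcrc2. The untested nuclear members were Uqcrc1 (0 to 1 count in a library), Cox8b (0 to 3), Ndufa4l2 (2 to 10), and Cox7b2 and Cox8c (0 in every library). Uqcrc1 encodes a core subunit of complex III, and Uqcrc2 of the same complex had a mean of 111 CPM over all libraries. The cause of the low Uqcrc1 counts was not found, and the results on complex III lack this gene. Of the 13 mitochondrial genes, mt-Nd3, mt-Nd4l, mt-Co3, and mt-Atp8 were listed at 0 in every library, mt-Co2 had 0 to 1 count, and mt-Atp6 had 0 to 2. The other 7 were among the most abundant transcripts of the table, with 3722 CPM per kb of exon for mt-Cytb and 845.1 CPM per kb for mt-Nd4, the highest and the lowest of them, as means over all libraries.

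Most mitochondrial genes without counts have near-identical copies in nuclear DNA. Of them, 5 were compared base by base with the copy that GENCODE M21 annotates next to each other on chromosome 1 (GRCm38, 24612407 to 24615565). mt-Co2, mt-Co3, mt-Atp6, and mt-Nd4l were identical to Gm28661, Gm28437, Gm10925, and Gm10222 over 681, 783, 678, and 294 bases. mt-Nd3 differed from Gm28438 at 1 of 345 bases, T3C, counted from the first base of the gene. The share of 50-base windows also found in another gene was between 97.99% and 100% for these 5 genes. The start of mt-Nd3 and of mt-Co2 is printed beside the copy, because reads from such a stretch can be placed in either gene, and capitals mark the base that differs. The mt-Nd3 stretch is chrM:9459-9518 and the mt-Co2 stretch chrM:7013-7072, both on the plus strand.
mt-Nd3: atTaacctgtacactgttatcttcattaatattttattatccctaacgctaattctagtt
Gm28438: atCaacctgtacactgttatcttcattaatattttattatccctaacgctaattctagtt
mt-Co2: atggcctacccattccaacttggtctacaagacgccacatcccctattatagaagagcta
Gm28661: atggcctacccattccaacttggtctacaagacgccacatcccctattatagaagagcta

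Among the counted genes, sharing was partial or absent. mt-Nd4 matched Gm28439 at all of its first 876 bases, out of 1378, and 62.23% of its 50-base windows occurred elsewhere. mt-Co1 matched Gm29216 at 486 of 492 bases from its base 1054 to its end, and 51.14% of its windows occurred elsewhere. The 60 bases from position 1054 of mt-Co1 (chrM:6381-6440, plus strand) are printed beside the copy because all 6 differences lie there, in capitals, and the rest of the copy is identical.
mt-Co1: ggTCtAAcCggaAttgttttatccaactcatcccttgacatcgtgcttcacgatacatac
Gm29216: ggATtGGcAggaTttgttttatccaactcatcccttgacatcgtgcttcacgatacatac

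For mt-Nd2 and mt-Nd5 the share of windows was 8.19% and 7.61%, and for mt-Nd1, mt-Nd6, and mt-Cytb it was 0%. mt-Atp8 had no counts although none of its windows occurred in another annotated gene. The search covered annotated genes only, so a copy outside them would not be seen. mt-Atp8 also shares 43 of its 204 bases with mt-Atp6 on the same strand, fewer than a 50-base window. How reads with several placements were treated is not given in the sources used here. The part of shared sequence in the counts of 0 was not tested. Nuclear members shared windows with other genes as well, with 31.06% for Ndufs5, 27.88% for Cox7c, 17.69% for Cox7a2l, 17.2% for Ndufa12, and 7.491% for Atp5l. For Sdha and Atp5a1 the share was 0%. The part of this sharing in the counts of nuclear members was not tested either.

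**Figure D1:**
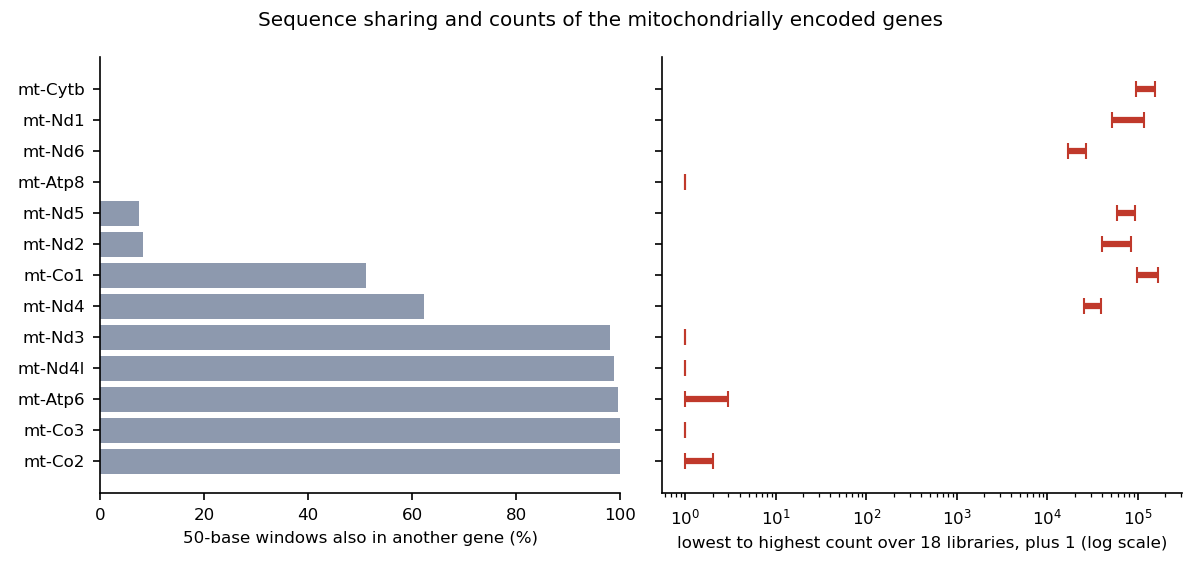
For each of the 13 mitochondrially encoded genes, the left panel plots the percentage of 50-base windows that also occur in another gene, and the right panel the lowest to highest count over the 18 libraries, plus 1, on a log scale. The 5 genes with 97.99% to 100% shared windows had at most 2 counts in any library, whereas the 7 others had at least 16963. mt-Atp8 also had no counts, with no window found in another annotated gene.

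Summed over the nuclear members of each complex, complexes I and II had all FGF6 libraries below all vehicle libraries at each time. Complex IV did so at 24 h alone, and complexes III and V at no time. Complex I summed to 2232 ± 47.3 CPM in vehicle and 1950 ± 50.4 CPM in FGF6 at 4 h (SD, n = 3 libraries), to 2527 ± 25.6 and 2210 ± 27.0 CPM at 8 h, and to 3065 ± 22.1 and 2751 ± 65.0 CPM at 24 h. At each time all 3 FGF6 libraries were below all 3 vehicle libraries, and the difference between the means was -12.6%, -12.5%, and -10.2% of vehicle. Complex II had differences of -14.7%, -12.5%, and -9.07%, again without overlap between libraries. These sums are descriptions and carry no test. In bulk RNA, fewer cells of a type and less RNA of a gene per cell cannot be told apart.

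The other complexes had small differences early and diverged at 24 h. Complex III differed by 0.681% at 4 h, where the libraries overlapped, and by 3.68% and 7.75% at 8 and 24 h, where all FGF6 libraries were higher. Complex IV differed by -2.79% and -0.386% at 4 and 8 h, with overlap, and by -6.3% at 24 h, with all FGF6 libraries lower. Complex V summed to 4581 ± 34.8 CPM in vehicle and 5246 ± 100 CPM in FGF6 at 24 h, a difference of 14.5% without overlap, after -1.76% at 4 h, with overlap, and 4.08% at 8 h, with all FGF6 libraries higher. Over all nuclear members, opposite differences left 2.23% at 24 h, with overlapping libraries, where the separate complexes did not overlap. Without Atp5b of complex V the difference over nuclear members was -2.44%, also with overlap. Atp5b alone had 1986 ± 30.2 CPM in vehicle and 2432 ± 26.3 CPM in FGF6 at 24 h, within the complex V sums. The median log2 fold change of the 17 tested complex V members was 0.06 at 24 h.

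The counted mitochondrial genes summed to 16160 ± 670 and 16210 ± 670 CPM in vehicle and FGF6 at 4 h, which overlapped. At 8 h the sums were 17950 ± 723 and 16870 ± 200 CPM, a difference of -6.02% with all FGF6 libraries lower, and at 24 h they were 19480 ± 921 and 22600 ± 304 CPM, a difference of 16.0% with all FGF6 libraries higher.

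**Figure D2:**
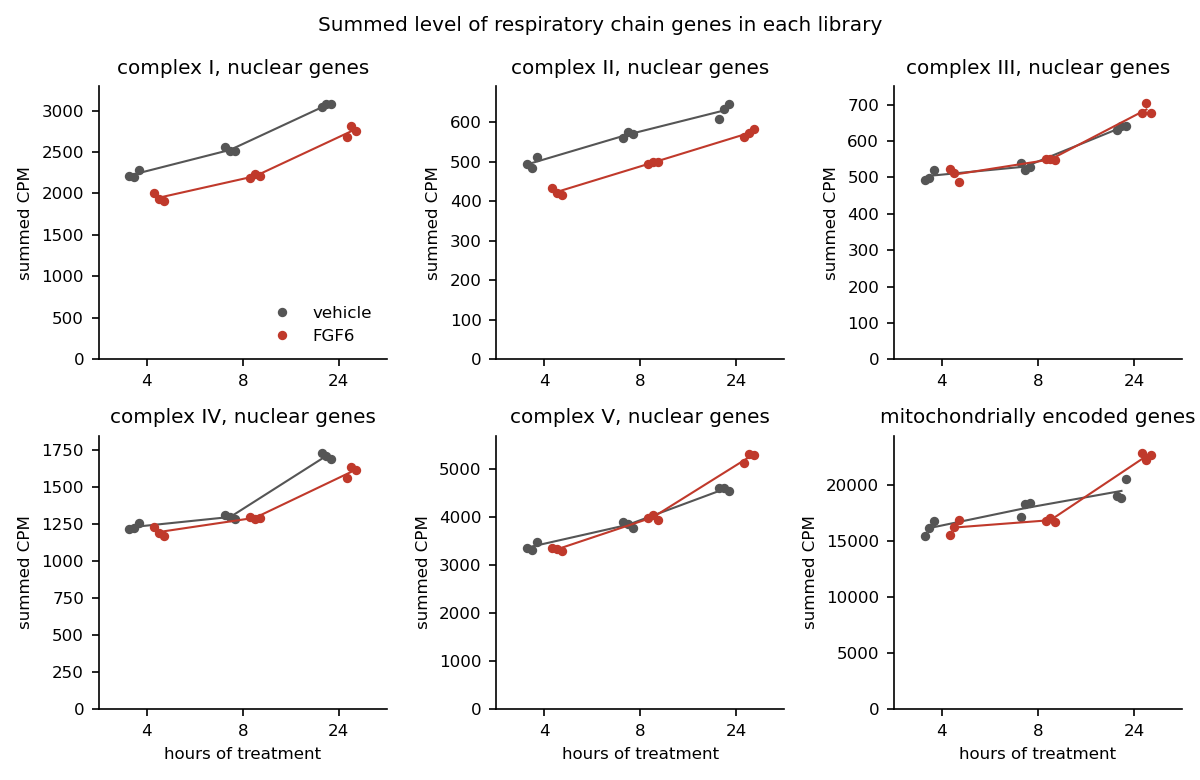
Summed CPM of the tested and untested members of each complex (nuclear genes) and of the mitochondrially encoded genes, for each library at 4, 8, and 24 h, with lines through the group means. FGF6 libraries (red) lie below vehicle libraries (grey) at every time for complexes I and II, and above them at 24 h for complexes III and V and the mitochondrial genes.

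Tested gene by gene with edgeR's quasi-likelihood test and Benjamini-Hochberg adjustment over 15071 genes, at an adjusted p under 0.05, the chain moved mostly downward at first. At 4 h, 2 of the 86 tested members were higher in FGF6 and 42 were lower, where 28.6% of all genes tested were higher and 34.2% were lower. At 8 h, 8 were higher and 46 lower, against 32.4% and 38.4% of all genes. At 24 h, 20 were higher and 38 lower, against 35.9% and 37.9%. Groups that did not overlap gave 3 members higher and 41 lower at 4 h (30.1% and 36.1% of all genes), 12 and 50 at 8 h (34.2% and 39.6%), and 22 and 35 at 24 h (36.7% and 38.1%). At an adjusted p of 0.25, the threshold the study used, 4 were higher and 48 lower at 4 h (33.9% and 41.8% of all genes), 12 and 53 at 8 h (37.8% and 44.4%), and 25 and 47 at 24 h (40.5% and 42.9%). The median log2 fold change of the members was -0.10, -0.11, and -0.07 at the 3 times, and that of all genes -0.05, -0.05, and -0.02. Without vehicle 24 h replicate 3, 22 were higher and 26 lower at 24 h. With a further correction for transcript length and GC content, 43 were higher and 18 lower at 24 h, but this correction also moved the median of all genes from -0.0218 to 0.1602 there. The same correction with the TMM scale kept, which was added after seeing that shift, gave 16 and 46. Library sizes in place of TMM gave 0 higher and 72 lower at 4 h, where the median of all genes was -0.1498. Relative to the median of all genes, the median of complex I lay 0.12 to 0.19 lower and that of complex II 0.09 to 0.26 lower at each time under each of these and the other settings that kept all libraries.

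**Figure D3:**
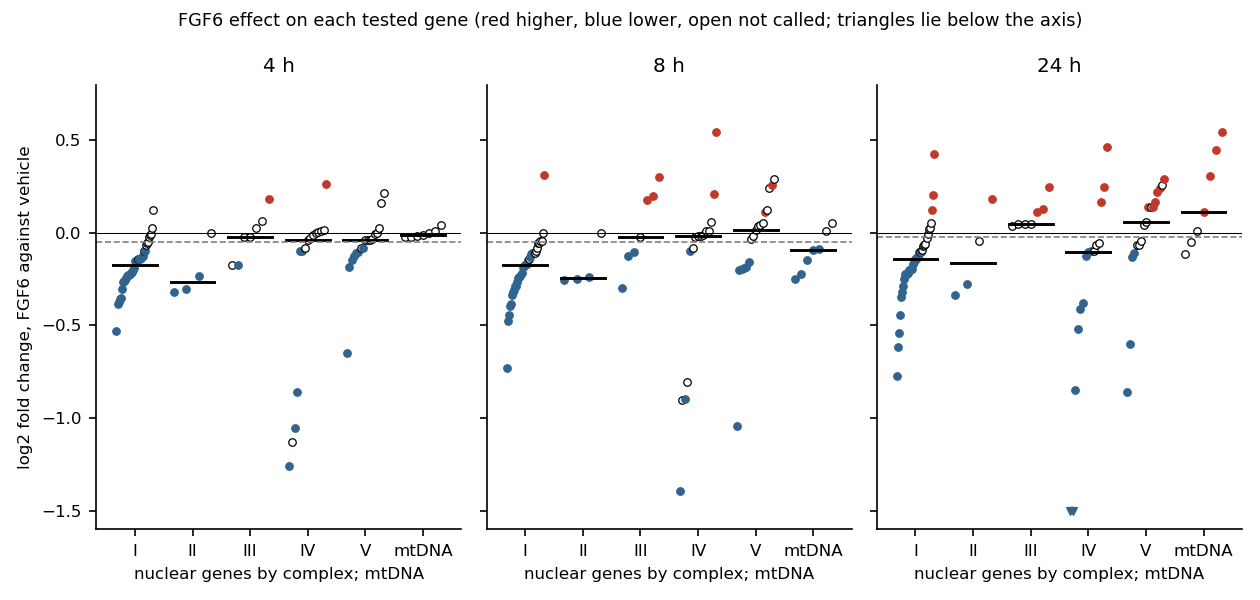
Log2 fold change of each tested member, FGF6 against vehicle, at 4, 8, and 24 h, by complex for nuclear genes and for mitochondrial DNA. Filled points passed an adjusted p of 0.05, bars are medians, and the dashed line is the median of all genes. At 24 h, 2 members of complex IV lie below the axis, at -1.74 and -3.91. Of the 36 points of complex I, 26, 26, and 23 are blue (lower) at the 3 times, against 34.2%, 38.4%, and 37.9% of all genes tested. With the length and GC correction that moved the all-gene median, 9 were lower and 13 higher at 24 h.

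Complex I had 36 tested nuclear members. Of these, 26 were lower and 0 higher at 4 h, 26 lower and 1 higher at 8 h, and 23 lower and 3 higher at 24 h. Over all genes tested, 34.2%, 38.4%, and 37.9% were lower and 28.6%, 32.4%, and 35.9% higher. At 4 h the count of members higher was 0 with limma-voom and DESeq2 too, and 0 at an unadjusted p under 0.05. The groups of subunits, formed after the values were seen, both took part. All 7 nuclear core subunits, which bind the flavin and the iron-sulfur clusters, fell at 4 h, 5 at 8 h, and 3 at 24 h, when 1 rose. Of 28 accessory subunits, 19 fell at 4 h, 20 at 8 h, and 19 at 24 h.

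The member of complex I that fell most was Ndufv3, an accessory subunit of the NADH-binding module. Vehicle libraries had 55.4, 53.4, and 56.6 CPM at 4 h and FGF6 libraries 39.5, 37.5, and 37.4 CPM. At 24 h the values were 81.0, 81.5, and 83.3 CPM against 48.5, 48.4, and 46.6 CPM. The groups did not overlap at any time, and Ndufv3 fell by 30.8%, 39.8%, and 41.6% at 4, 8, and 24 h (log2 fold changes -0.53 ± 0.044, -0.73 ± 0.044, and -0.78 ± 0.043 with standard errors, edgeR adjusted p = 1.05e-10, 1.25e-13, and 1.32e-14). Ndufb11, an accessory subunit of the membrane arm encoded on the X chromosome, fell by 22.9%, 23.5%, and 34.7%. Its 24 h levels were 104, 110, and 111 CPM in vehicle and 67.0, 73.0, and 72.4 CPM in FGF6, again without overlap. Ndufb11 was named after its values were seen, and it shares 117 exonic bases with Rbm10 on the other strand.

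Ndufs1, an iron-sulfur core subunit, was lower at 4 h and higher at 24 h. It fell by 6.51% at 4 h, by the fitted means (edgeR adjusted p = 0.0424), with overlapping libraries, and this call was lost when any of 5 of the 6 libraries was left out. At 24 h it rose by 15.0% (log2 fold change 0.20 ± 0.039, edgeR adjusted p = 6.1e-05), from 96.0, 99.3, and 104 CPM to 114, 120, and 109 CPM. Ndufa12, an accessory subunit of the arm in the matrix, rose by 24.2% at 8 h and 34.2% at 24 h, when it had 17.1, 17.4, and 17.2 CPM in vehicle and 21.9, 25.4, and 22.1 CPM in FGF6. Ndufv1, which binds NADH and the flavin, fell at each time, with 129 ± 5.31 CPM in vehicle and 116 ± 5.02 CPM in FGF6 at 4 h (SD, n = 3), and lost the call at 8 h without either of 2 libraries and at 24 h without any of 3.

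Complex II has 4 subunits and all are nuclear. Sdha, the flavoprotein that oxidizes succinate, had 194, 182, and 203 CPM in vehicle and 158, 155, and 150 CPM in FGF6 at 4 h. Sdha at 24 h had 239, 249, and 257 CPM against 201, 205, and 208 CPM. The groups did not overlap at 4, 8, or 24 h, and Sdha fell by 19.8%, 15.3%, and 17.5% (edgeR adjusted p = 3.21e-08, 1.96e-06, and 1.63e-07). Sdhc, a membrane anchor, fell by 14.8%, 16.1%, and 20.7%, also without overlap.

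The other 2 subunits did not follow at 24 h. Sdhb, which carries the iron-sulfur clusters, fell by 19.1% and 15.8% at 4 and 8 h. At 24 h it had 140, 148, and 146 CPM in vehicle and 137, 140, and 144 CPM in FGF6, which overlapped and did not pass the test (edgeR adjusted p = 0.283). Sdhd, the second anchor, did not pass the test at 4 and 8 h. It rose by 13.4% at 24 h, from 114, 117, and 120 CPM to 131, 135, and 132 CPM (edgeR adjusted p = 7.35e-05).

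Complex III had 7 tested nuclear members, of which 1 was higher and 1 lower at 4 h, 3 and 3 at 8 h, and 3 and 0 at 24 h. The shares over all genes were 28.6%, 32.4%, and 35.9% higher and 34.2%, 38.4%, and 37.9% lower. Its catalytic iron-sulfur protein, Uqcrfs1, was higher at each time. It had 88.3, 91.1, and 91.5 CPM in vehicle and 106, 104, and 97.2 CPM in FGF6 at 4 h. At 24 h it had 108, 106, and 106 CPM against 119, 131, and 129 CPM. No FGF6 library overlapped with vehicle at any time, and the increase was 13.4%, 23.0%, and 18.5% (edgeR adjusted p = 0.000252, 2.24e-07, and 3.39e-06). Cyc1, which encodes cytochrome c1 of the same complex but is not a member by its name, had log2 fold changes of 0.34 and 0.46 at 8 and 24 h and did not pass the test at 4 h.

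Complex IV had 15 tested nuclear members, of which 1 was higher and 5 lower at 4 h, 2 and 3 at 8 h, and 3 and 9 at 24 h. These counts stand beside 28.6%, 32.4%, and 35.9% of all genes higher and 34.2%, 38.4%, and 37.9% lower. Its subunits differed in direction at 24 h. Cox5a, a subunit bound on the matrix side, had 81.2, 77.3, and 76.9 CPM in vehicle and 108, 106, and 110 CPM in FGF6 at 24 h. It rose by 15.5% at 8 h and 37.7% at 24 h without overlap (edgeR adjusted p = 8.87e-05 and 2.33e-10). Cox6a1, the widely expressed form of subunit VIa, had 339, 332, and 319 CPM in vehicle and 226, 229, and 235 CPM in FGF6 at 24 h. It fell by 30.2% (edgeR adjusted p = 1.87e-11), after overlapping libraries at 4 and 8 h. A call at 4 h (-0.10, edgeR adjusted p = 0.043) was lost without any of 4 libraries.

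In vehicle, Cox6a1 rose between 8 and 24 h, from 220.0 ± 6.35 to 330.0 ± 10.6 CPM, and FGF6 libraries stayed between 189 and 235 CPM over the 3 times. Cox7a2l, the supercomplex factor, fell by 24.8% at 24 h, when vehicle had risen from 42.3 to 79.0 CPM since 8 h. Cox7b and Cox7a2, small membrane subunits, rose by 18.8% and 12.0% at 24 h. Cox7c, another small subunit, rose by 45.8% at 8 h (edgeR adjusted p = 4.41e-05), and at 24 h its libraries overlapped. Its mean was 9.29 CPM over all libraries, and 27.88% of its 50-base windows also occurred in other genes.

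Some subunits of complex IV exist in a form used widely and a form known from particular tissues such as lung, heart, skeletal muscle, or testis. Of the second kind, Cox4i2 and Cox6a2 were lower in FGF6 at each time, and Cox7a1 and Cox6b2 at some. Cox4i2, the form of subunit IV known from lung and responses to low oxygen, had 9.11, 10.5, and 9.35 CPM in vehicle and 5.43, 5.45, and 5.04 CPM in FGF6 at 4 h. At 24 h it had 13.9, 14.8, and 14.3 CPM against 11.4, 10.8, and 10.9 CPM. It fell by 44.9%, 46.3%, and 23.2% without overlap (edgeR adjusted p = 1.72e-08, 2.49e-09, and 0.000198). Per kb of exon, its share of both forms of subunit IV had a median of 5.28%, 6.17%, and 6.61% in vehicle and 3.2%, 3.44%, and 5.25% in FGF6 at 4, 8, and 24 h.

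Cox6a2, the heart and muscle form of subunit VIa, was near the limit of detection. At 24 h the vehicle libraries had 18, 24, and 25 counts and the FGF6 libraries 1, 1, and 2. Over the libraries the level in vehicle was 16.2 times that in FGF6, with a 95% exact interval of 6.03 to 61.1 for counting error. The fitted log2 fold changes were -1.05 ± 0.3, -1.40 ± 0.34, and -3.91 ± 0.55 at 4, 8, and 24 h (edgeR adjusted p = 0.00326, 0.000837, and 5.07e-07), and the call at 4 h was lost without vehicle 4 h replicate 2 (-0.73). Cox7a1, the muscle and brown fat form of subunit VIIa, had at most 1.30 CPM in a library. It was called lower at 4 h (log2 fold change -1.26) and 24 h (-0.85), and lost these calls without any of 2 and 4 libraries, respectively. Cox6b2, the testis form of subunit VIb, was called lower at 24 h (-1.74), from 0.453 to 0.133 CPM, and lost the call without vehicle 24 h replicate 2 (-1.46).

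Markers of muscle and of mature fat moved with these forms. The marker lists are short, and their counts stand beside shares of all genes tested. Those shares were 28.6%, 32.4%, and 35.9% higher and 34.2%, 38.4%, and 37.9% lower at 4, 8, and 24 h. Of 8 muscle markers, 5 passed the low-count filter, and 0 were higher and 4, 5, and 5 lower in FGF6 at 4, 8, and 24 h. Their summed level was 12.3 to 16.7 CPM in vehicle and 2.77 to 3.85 CPM in FGF6 at 24 h, and Myh4, a myosin of fast muscle, was at 0. Of 8 markers of mature adipocytes, 5 passed, and 0 were higher and 3, 5, and 5 lower. Their summed level was 186 to 210 CPM in vehicle and 71.5 to 79.2 CPM in FGF6 at 24 h, and Lep was at 0. Of 7 tested preadipocyte markers, 0, 1, and 1 were higher and 6, 6, and 6 lower, the higher one being Cd34 (1.38 at 24 h on the log2 scale), and their sum was 5970 to 6400 CPM in vehicle and 1410 to 1480 CPM in FGF6 at 24 h, with Dlk1 at 0. Of 4 brown lineage markers, 3 passed, and 1, 1, and 1 were higher and 1, 2, and 2 lower. Their sum was 86.8 to 92.5 CPM in vehicle and 65.1 to 70.3 CPM in FGF6 at 24 h. Of 4 endothelial markers, 2 passed, and 2, 2, and 1 were higher and 0 lower, with a sum of 0.965 to 1.3 CPM in vehicle and 3.71 to 5.65 CPM in FGF6 at 24 h. Of 5 blood and macrophage markers, 3 passed, and 1, 1, and 0 were higher and 1, 2, and 3 lower, with a sum of 7.6 to 8.65 CPM in vehicle and 3.36 to 4.04 CPM in FGF6 at 24 h. The part of such shifts in the results on these forms, or on the chain, was not tested.

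**Figure D4:**
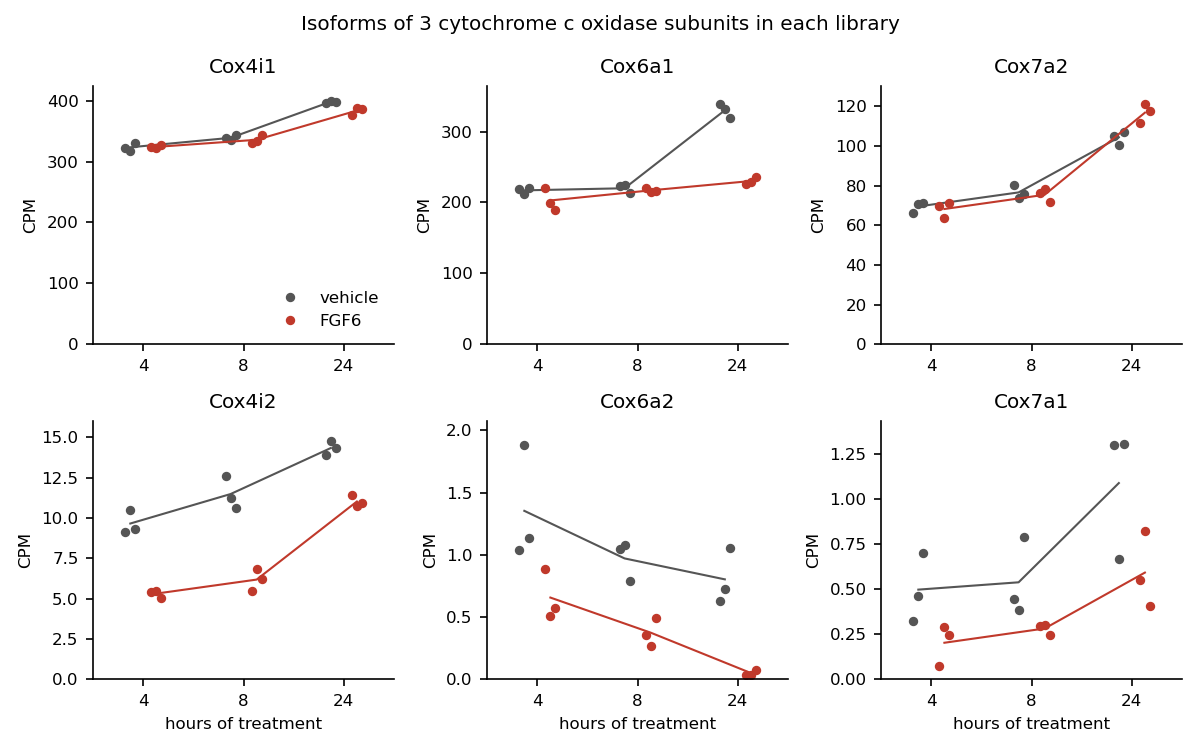
CPM of the widely used form (top) and the tissue form (bottom) of 3 complex IV subunits in each library, with lines through the group means. Cox4i2 is lower in FGF6 (red) than in vehicle (grey) at each time, and Cox6a2 at 24 h rests on 1 to 2 counts in each FGF6 library.

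Complex V had 17 tested members, all nuclear. At 4 h 0 were higher and 7 lower with edgeR, with 0 higher at an unadjusted p under 0.05, with limma-voom, and with DESeq2. At 8 h 2 were higher and 6 lower, and at 24 h 6 were higher and 4 lower. Among all genes tested, 28.6%, 32.4%, and 35.9% were higher and 34.2%, 38.4%, and 37.9% lower at 4, 8, and 24 h. Atp5b, the catalytic beta subunit of the F1 head, was the most abundant nuclear member per kb. It had 1444, 1443, and 1498 CPM in vehicle and 1495, 1492, and 1471 CPM in FGF6 at 4 h, which overlapped. At 24 h it had 2015, 1988, and 1955 CPM against 2401, 2445, and 2449 CPM, which were apart. It rose by 8.0% at 8 h and 22.4% at 24 h (edgeR adjusted p = 0.000109 and 1.26e-11).

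Atp5a1, the alpha subunit of the same head, rose by 18.4% at 24 h, from 725, 751, and 740 CPM to 842, 886, and 896 CPM. At 4 h it fell by 5.4% (edgeR adjusted p = 0.0213), a call lost without any of 5 of the 6 libraries. Atp5d, the delta subunit of the head, rose by 19.4% at 8 h and 9.99% at 24 h, where the libraries overlapped. Atp5g3, 1 of the 3 genes for the c-ring that turns in the membrane, rose by 16.6% at 24 h. Of the 5 genes of the head, 0, 2, and 3 were higher and 2, 0, and 1 lower at 4, 8, and 24 h, and of the 3 of the c-ring 1 was higher and 0 lower at 24 h. Of 8 genes of the stalk and the membrane part, 4 and 5 were lower at 4 and 8 h, and 2 were higher and 2 lower at 24 h. The shares of all genes given for complex V stand beside these small counts too. Atp5s, the coupling factor, fell by 36.3%, 51.5%, and 44.8% at 4, 8, and 24 h, from 7.32, 7.66, and 7.23 CPM to 3.43, 3.89, and 4.96 CPM at 24 h.

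The 7 counted mitochondrial genes were close to vehicle at 4 h, where 0 passed the test in either direction with edgeR, limma-voom, and DESeq2, or at an unadjusted p under 0.05, although 6 were lower when library sizes replaced TMM. At 8 h, 5 of the 7 were lower. The shares of all genes tested were 28.6% higher and 34.2% lower at 4 h, and 32.4% and 38.4% at 8 h. mt-Nd5 and mt-Nd6, subunits of the membrane arm of complex I, had log2 fold changes of -0.22 ± 0.048 and -0.25 ± 0.052 at 8 h (edgeR adjusted p = 0.000251 and 0.000151). mt-Nd5 had 2630, 2908, and 2984 CPM in vehicle and 2436, 2461, and 2416 CPM in FGF6, without overlap. mt-Nd4, mt-Co1, and mt-Cytb had smaller values of -0.15, -0.10, and -0.09 at 8 h, and each lost its call when certain libraries were left out, FGF6 8 h replicate 3 among them, without which they were -0.09, -0.03, and -0.04. mt-Nd6 is encoded on the other strand from the rest and shares 14 bases with mt-Nd5, and whether counting used the strand is not given in the sources used here.

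At 24 h, 4 of the 7 were higher and 0 lower with edgeR, limma-voom, and DESeq2, with 1 lower at an unadjusted p under 0.05. With the length and GC correction on the TMM scale, 3 were higher and 3 lower. Over all genes, 35.9% were higher and 37.9% lower with edgeR. mt-Nd1, a membrane subunit at the quinone site of complex I, had 2800, 2733, and 3009 CPM in vehicle and 4166, 4107, and 4199 CPM in FGF6. It rose by 46.0% (log2 fold change 0.55 ± 0.029, edgeR adjusted p = 7.75e-15). mt-Nd2, also of complex I, had 2128, 2098, and 2308 CPM in vehicle and 3035, 2927, and 2943 CPM in FGF6, an increase of 36.3%. mt-Cytb, the cytochrome b of complex III, had 4321, 4211, and 4666 CPM in vehicle and 5561, 5347, and 5420 CPM in FGF6, an increase of 23.7% (edgeR adjusted p = 1.79e-08).

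These 3 genes were apart by more than the spread of either group. mt-Nd4 rose by 8.18% (edgeR adjusted p = 0.0217), a call that was absent, at -0.01, with the length and GC correction on the TMM scale. mt-Nd5, mt-Nd6, and mt-Co1 did not pass the test at 24 h, with 2725 ± 12.4, 762.9 ± 3.6, and 5194 ± 126 CPM in FGF6 and 2819 ± 153, 825.0 ± 57.3, and 5169 ± 166 CPM in vehicle. Without vehicle 24 h replicate 3, which had the highest level of each of the 7 genes among the vehicle libraries of that time, 4 were again higher and 0 lower, and their median log2 fold change was 0.20 in place of 0.11.

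**Figure D5:**
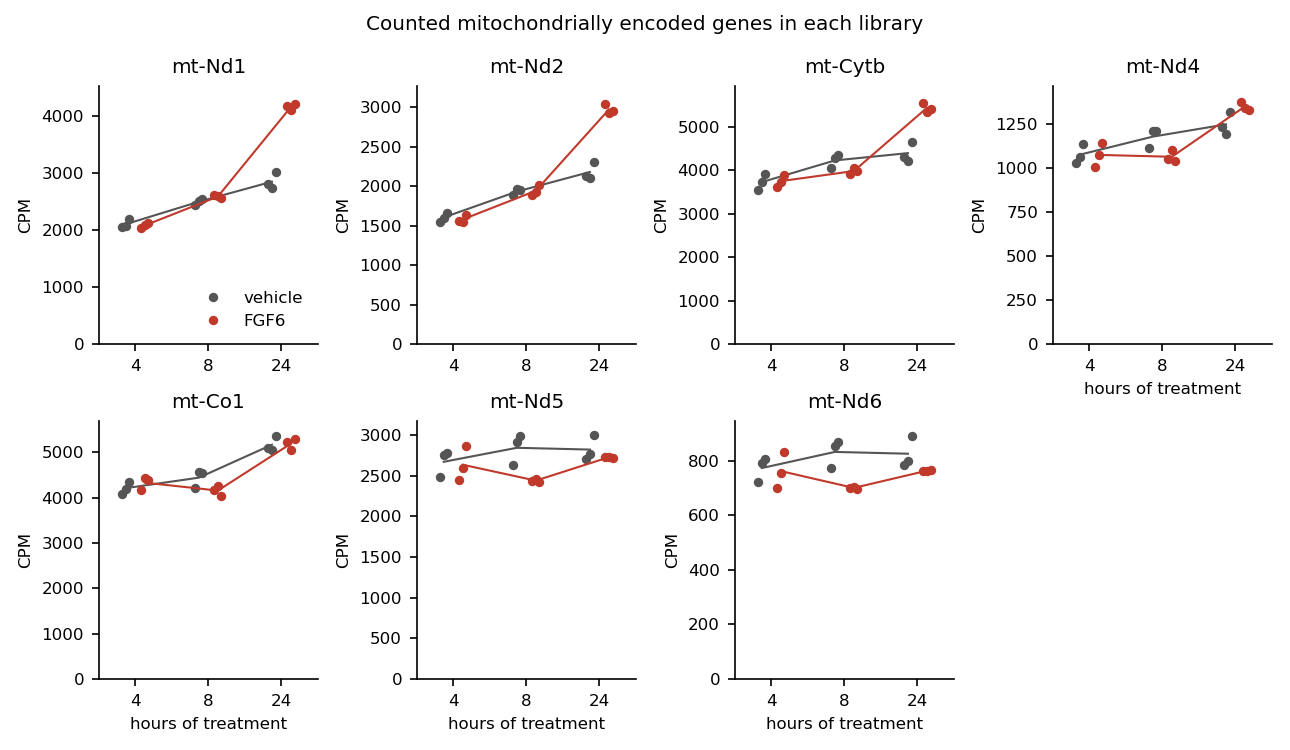
CPM of the 7 counted mitochondrially encoded genes in each library at 4, 8, and 24 h, with lines through the group means. FGF6 libraries (red) lie above vehicle libraries (grey) at 24 h for mt-Nd1, mt-Nd2, and mt-Cytb, and below them at 8 h for mt-Nd5 and mt-Nd6.

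The change of the FGF6 effect with time was tested next. Between 4 and 8 h it shifted upward for 7 members and downward for 4 (interaction test in edgeR), where 15.5% and 15.1% of all genes did so. Between 8 and 24 h it shifted upward for 26 members and downward for 7, against 22.6% and 22.5% of all genes. At an adjusted p of 0.25 the counts were 16 and 15 (25.2% and 23.9% of all genes), then 34 and 12 (31.4% and 30.8%). The upward shifts included mt-Nd1 (0.49 ± 0.041), mt-Nd2 (0.44 ± 0.047), and Cox4i2 (0.52 ± 0.12, where the decrease became smaller), and the downward ones Cox6a1 (-0.50 ± 0.058) and Cox7a2l (-0.42 ± 0.064). All 5 head genes of complex V were tested, and 4 shifted upward between 4 and 8 h.

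Vehicle cells themselves changed over the same hours. Between 4 and 8 h, 49 members were higher and 1 lower in vehicle, where 21.2% of all genes were higher and 21.7% lower. Between 8 and 24 h, 70 were higher and 0 lower with edgeR, limma-voom, and DESeq2, against 25.5% and 23.7%, and 0 were lower at an unadjusted p under 0.05. The nuclear members together rose from 7849 ± 176 CPM at 4 h to 8760 ± 89.7 at 8 h and 10620 ± 26.5 at 24 h, with no overlap between times. Uqcrfs1 was the member that was lower at 8 h (log2 fold change -0.11), and the call was lost without any of 4 libraries. In FGF6 cells, 50 members were higher and 0 lower between 4 and 8 h (24.1% and 24% of all genes, with 3 members lower at an unadjusted p under 0.05), and 73 were higher and 3 lower between 8 and 24 h (31.1% and 31.2%). At an adjusted p of 0.25, 65 were higher and 4 lower in vehicle from 4 to 8 h (29.8% and 29.6% of all genes), 74 and 0 from 8 to 24 h (34.4% and 32.6%), and in FGF6 62 and 5 (32.2% and 32.1%), then 77 and 4 (37.4% and 38.8%). The comparisons within FGF6 were added after seeing those of vehicle. The comparisons over time share libraries with each other and with those of FGF6 against vehicle.

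Genes that serve the chain were tested in the same fit, from lists chosen with earlier results of these data known. The shares of all genes beside which their counts stand are 28.6%, 32.4%, and 35.9% higher and 34.2%, 38.4%, and 37.9% lower at 4, 8, and 24 h. Of 31 tested genes for the maintenance and expression of mitochondrial DNA, 16, 20, and 20 were higher and 4, 5, and 6 lower in FGF6 at 4, 8, and 24 h, and their median log2 fold change was 0.12, 0.29, and 0.32. Trmt10c, a subunit of the enzyme that trims mitochondrial RNA, had log2 fold changes of 0.85, 1.13, and 1.04. Tfam, which packages mitochondrial DNA and starts its transcription, had 89.3, 88.0, and 89.5 CPM in vehicle and 125, 117, and 116 CPM in FGF6 at 24 h. It was higher at each time, with log2 fold changes of 0.34, 0.29, and 0.42. The largest decreases in this list were in Mterf2 at 4 h (-0.47), Tfb1m at 8 h (-0.52), and Pnpt1 at 24 h (-0.63).

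Of 46 tested assembly factors, 8, 15, and 13 were higher and 14, 12, and 18 lower. Within them, the complex I factors Ndufaf4 (0.58, 1.14, and 0.80 at 4, 8, and 24 h) and Tmem126b (-0.91, -0.83, and -0.85) moved in opposite directions. Of 20 tested nuclear regulators of mitochondrial genes, 9, 10, and 8 were higher and 5, 4, and 3 lower. Myc, a growth regulator, had log2 fold changes of 2.03, 2.31, and 1.74. Ppargc1a, the coactivator known for driving mitochondrial biogenesis in brown fat, had -1.19, -1.11, and -1.65, and 9.14, 8.71, and 9.04 CPM in vehicle against 3.10, 2.57, and 2.86 CPM in FGF6 at 24 h. Its relative Pprc1 had 0.53, 0.72, and 0.48, and Ppargc1b had -1.06 at 24 h. Pparg, a master regulator of fat cells, had -0.98, -1.35, and -2.04. Esrra, a nuclear receptor that acts on genes of the chain, had 0.71 and 0.86 at 4 and 8 h and did not pass the test at 24 h. Gabpa had 0.21, 0.15, and 0.44, and Nrf1 0.16 and 0.26 at 8 and 24 h.

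Of 9 tested electron carriers, most of them outside the complexes, 1, 5, and 4 were higher and 4, 4, and 4 lower. Etfdh and Etfb, which bring electrons from fatty acid oxidation, had log2 fold changes of -1.06 and -1.44 at 24 h. Prodh, proline dehydrogenase, had 1.13 and 1.19 at 8 and 24 h. Cycs, cytochrome c, had 0.46 and 0.87 at these times, and the call at 8 h was lost without vehicle 8 h replicate 2 (0.38, edgeR adjusted p = 0.0654). Of 19 enzymes of the citric acid cycle and the steps that feed it, 4, 7, and 8 were higher and 9, 6, and 4 lower, from Pcx, which makes oxaloacetate (-1.11, -1.91, and -2.83), to Idh3a (0.19, 0.54, and 0.84). Of 10 tested proton leak and carrier genes, 4, 4, and 7 were higher and 2, 1, and 2 lower. Ucp1 was at 0 in 15 libraries and had 0.620, 0.679, and 0.918 CPM in the FGF6 libraries at 24 h, at least 4.92-fold higher than the floor of 3 counts in a vehicle library of that time.

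Short promoter stretches were read for letters that regulators of the chain are known to bind. RefSeq windows on GRCm38.p6, from 250 bases before to 50 after each start, were matched to 68 of the 84 nuclear members and held 73 windows, against 32851 windows of 27025 genes. Both strands were searched. The NRF1 letters, a palindrome that is spelled in the capitals of the 4 stretches printed here, were in 6.8% of member windows and 1.0% of all windows. The GABPA letters CCGGAAG were in 21.9% and 8.9%, the ERRA letters AAGGTCA in 11% and 4.7%, the YY1 letters AAGATGG in 15.1% and 6.3%, and the Sp1 letters GGGCGG in 39.7% and 35.7%. No test was made of these shares, some genes have several windows, and a match is a string of letters and not a site.

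By complex, the ERRA letters were in 3 of 34 complex I windows (8.8%) and 4 of 18 complex V windows (22.2%). They were in 1 of 3 complex II, 0 of 5 complex III, and 0 of 13 complex IV windows. The NRF1 letters were in 1 complex I window (2.9%) and 2 complex V windows (11.1%). They were in 0, 1, and 1 windows of complexes II, III, and IV. The 4 stretches that hold the NRF1 letters ahead of the RefSeq start are printed, since this string was the rarest of the 5 over all windows, with the matched letters in capitals and in the direction of the gene. They are chr15:102671055-102671114 (minus strand) for Atp5g2, chr5:108434415-108434474 (minus) for Atp5k, chr5:115349086-115349145 (minus) for Cox6a1, and chr17:56717677-56717736 (plus) for Ndufa11. For Atp5g2 and Atp5k, the outermost start in GENCODE M21 lies farther upstream than the RefSeq start used, so these letters fall within or at the edge of the annotated gene. The untested Uqcrc1 also held the letters past its RefSeq start.
Atp5g2: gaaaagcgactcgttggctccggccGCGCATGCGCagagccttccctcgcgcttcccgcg
Atp5k: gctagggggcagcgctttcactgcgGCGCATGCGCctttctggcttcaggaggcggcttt
Cox6a1: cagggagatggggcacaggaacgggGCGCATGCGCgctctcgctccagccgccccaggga
Ndufa11: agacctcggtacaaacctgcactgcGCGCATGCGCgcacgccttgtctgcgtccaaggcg
At 24 h Cox6a1 and Ndufa11 were lower in FGF6, with 230.2 ± 4.72 and 65.4 ± 3.75 CPM against 330.0 ± 10.6 and 71.7 ± 4.3 CPM in vehicle, although Ndufa11 libraries overlapped, and Atp5g2 and Atp5k did not pass the test.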

How the data were processed

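Counts per gene were deposited as a single table for the 18 libraries. Per the labels' processing notes and the study's methods, the authors aligned reads with STAR to GRCm38 and counted them with featureCounts of Subread on GENCODE genes. Tool versions, the strand setting, and the treatment of reads with several placements are not given in the sources used here. All sample columns were used. Of the Ensembl identifiers, 98.3% were matched to symbols of GENCODE M21.

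Genes were filtered with filterByExpr, which left 15071 of 48023, of which 19409 were at 0 in every library. TMM factors ranged from 0.951 to 1.05. A model with 1 mean for each of the 6 groups was fitted over all 18 libraries with edgeR 4.0.16 (quasi-likelihood F test, R 4.3.3), with Benjamini-Hochberg adjustment over all genes tested and a threshold of 0.05. The study used limma-voom and a threshold of 0.25, and both were tried as alternatives (limma 3.58.1), with DESeq2 1.42.0. Standard errors are those implied by the F statistic. The scripts were tested on simulated data. An exact permutation test of 3 against 3 libraries cannot go below p = 0.1, so none is given. Library totals limit precision for genes under about 10 counts.

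Genes were named by a rule: the mitochondrial genes, complex II, catalytic core subunits, isoform families, and the 4 largest calls in each direction per test, with main regulators and the largest calls of each pathway list. A gene that the rule names is not reported here. Cyc1, Cycs, and Atp5g2 are in that rule. Ndufa11 and Atp5k were named for their promoters, and Ndufb11 and Uqcrc2 outside the rule, all after values were seen. The members and lists were chosen with earlier results of these data known, and the subunit groups after member values were seen. Shared sequence was counted as 50-base windows of a gene's exons found in exons of another gene of GENCODE M21. Promoter windows came from RefSeq.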

Additional observations from a re-analysis of the deposited data

Results flagged for a closer look

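The FGF6 effect differed between times by an interaction test in edgeR. From 4 to 8 h it shifted upward for 7 members and downward for 4. Upward shifts included Atp5d (0.29), Cox5a (0.21), and Atp5c1 (0.14), on the log2 scale, and the downward ones were in mt-Nd6 (-0.23), mt-Nd5 (-0.2), Ndufv3 (-0.2), and mt-Co1 (-0.14). Of these, Atp5c1 lost the call without FGF6 8 h replicate 2 (0.12). Each downward shift was lost without FGF6 8 h replicate 3, and without other libraries in turn, with mt-Nd6 at -0.21, mt-Nd5 at -0.18, Ndufv3 at -0.15, and mt-Co1 at -0.10 without that replicate.

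From 8 to 24 h the effect shifted upward for 26 members and downward for 7. The largest upward shifts were in Cox4i2 (0.52), Ndufs5 (0.5), mt-Nd1 (0.49), and mt-Nd2 (0.44), and the largest downward ones in Cox6a2 (-2.52), Atp5l (-0.89), Cox7c (-0.64), and Cox6a1 (-0.5). The Cox6a2 value rests on 1 to 2 counts in each FGF6 library at 24 h. Of the 50-base windows of Ndufs5, Cox7c, and Atp5l, 31.06%, 27.88%, and 7.491% also occurred in other genes. Atp5l, with 24 to 69 counts in a library, lost the call without any of 6 libraries, which gave values from -0.88 to -0.69.

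Outside the members, Gm28438, the nuclear copy that differs from mt-Nd3 at 1 base, had at least 53 and up to 261 counts in each library, whereas mt-Nd3 was listed at 0. The copies beside it on chromosome 1 were nearly empty. Gm28439, Gm10222, Gm28437, Gm10925, and Gm28661 had at most 2, 2, 5, 6, and 7 counts in a library. Where reads of the shared stretches went was not tested.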

How the results depend on the processing

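Each setting was changed alone, except that the length and GC offset also replaced the TMM scale. For FGF6 against vehicle at 4 h, members higher were 0 with library sizes alone, 4 with at least 10 counts in every library, 5 with the length and GC offset, and 4 at FDR under 0.25, and members lower were 72 with library sizes alone. At 8 h members higher were 13 with DESeq2, 14 normalised on nuclear genes, and 15 with the offset. At 24 h the offset gave 43 higher and 18 lower, DESeq2 21 and 28, and nuclear genes 26 and 28. For the effect at 8 h minus 4 h, members higher were 16 at FDR under 0.25, and members lower were 2 with DESeq2, 1 with library sizes, 7 with the offset, 13 with the offset on the TMM scale (added after seeing the data), and 15 at FDR under 0.25. For 24 h minus 8 h, 46 were higher with the offset and 12 lower at FDR under 0.25. For vehicle at 8 h against 4 h, members lower were 0 with library sizes, 2 with limma-voom, nuclear genes, at least 10 counts, the replicate block, the offset, and only the groups compared, 3 with the offset on the TMM scale, and 4 at FDR under 0.25. For vehicle at 24 h against 8 h they were 2, 3, and 2 with library sizes, the offset, and the offset on the TMM scale. For FGF6 at 8 h against 4 h they were 3 without the filter, 2 with at least 10 counts, the block, and only the groups compared, 3 with the offset, 5 with it on the TMM scale, and 5 at FDR under 0.25. The cause was not tested.

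Leaving out 1 library at a time gave 1 to 4 higher and 31 to 41 lower at 4 h, 7 to 14 and 34 to 45 at 8 h, and 17 to 26 and 22 to 38 at 24 h. It gave 3 to 12 and 0 to 11 for the effect at 8 h minus 4 h, and 21 to 27 and 5 to 9 for 24 h minus 8 h. Over time it gave 42 to 51 and 0 to 1 in vehicle from 4 to 8 h, 64 to 67 and 0 from 8 to 24 h, 42 to 52 and 0 to 3 in FGF6 from 4 to 8 h, and 69 to 72 and 2 to 3 from 8 to 24 h.

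Same-numbered replicates of vehicle and FGF6 did not deviate together (correlations from -0.0255 to 0.0515 within a time), so the numbers were not taken as pairs. With the replicate block, 2 were higher and 43 lower at 4 h, 8 and 46 at 8 h, and 20 and 39 at 24 h.

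Single genes turned sign as follows. With the offset, Atp5a1 at 4 h was 0.0296, mt-Co1 at 8 h 0.0112, Cox8a at 8 h -0.1032, and at 24 h Sdhb was 0.1851, Ndufv1 0.1583, and Cox4i1 0.11. With library sizes, Atp5b was -0.0771, Cox4i1 -0.0984, and mt-Cytb -0.092 at 4 h, and Cox8a -0.055 at 8 h. With the offset on the TMM scale, mt-Cytb at 4 h was -0.0182, Cox8a at 8 h -0.1953, mt-Nd4 at 24 h -0.0076, and mt-Co1 at 24 h -0.1072. mt-Co1 at 24 h was also -0.0012 without the filter and -0.0068 with at least 10 counts. Without 1 library, Cox4i1 ranged from -0.0089 to 0.0315 at 4 h and from -0.0597 to 0.0044 at 24 h, mt-Cytb from -0.0249 to 0.0596 at 4 h, Cox8a from -0.0147 to 0.0492 at 8 h, and Sdhb from -0.0399 to 0.0184 at 24 h.

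Named values were carried through these settings where they were called, 140 of them, or where a setting called them in the other direction, 7 of them, a restriction made after seeing the data. Of 51 named values that were not called, 39 changed sign under a setting and 7 were called in the other direction by one. Of the 147 carried, settings that kept all libraries left 1511 comparisons with the same direction and call, 71 lost the call, 8 gained it, and 16 turned sign. Leaving out 1 library left 873 the same, 91 lost the call, and 8 turned sign.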
